A study of Mus musculus with 16 samples.

Results

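The genes described here encode the enzymes and carriers that oxidise fatty acids in mitochondria and peroxisomes, measured in mouse interscapular brown fat. They were taken by symbol as a pathway list and matched through Ensembl identifiers. They make up 36 of the 38924 genes in the deposited read count table. Each had counts in every library (at least 94, for Acaa1b), so all 36 were tested.

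Brown fat was taken from C57BL/6J mice aged 13 weeks after 4 weeks at 30 °C, which is thermoneutral for a mouse, or at 22 °C, which is mildly cold for it. At each temperature, wild-type littermates (WT) were set against mice lacking Akt2 in brown fat (KO). Akt2 is a kinase of the insulin pathway, and its deletion relied on CreER, a Cre recombinase activated by an estrogen receptor ligand, driven by the Ucp1 promoter (UCP1-CreER). The 4 groups, WT at 30 °C, WT at 22 °C, KO at 30 °C and KO at 22 °C, had 4 bulk RNA sequencing libraries each, 16 in all. The Ucp1 promoter acts in brown adipocytes, so vascular, immune and stromal cells of the same tissue keep Akt2. The labels do not describe the ligand treatment or say whether WT mice carried the Cre. They number the libraries without tying each to an animal, so the p-values rest on variation among libraries that may be technical in part or whole.

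Brown adipocytes burn fatty acids to make heat. Long-chain fatty acids enter mitochondria through the carnitine shuttle and are shortened in repeated cycles of dehydrogenation, hydration, dehydrogenation and thiolysis, with the electrons of the first step passed on by the electron transfer flavoprotein. Peroxisomes shorten very long and branched chains by a parallel set of enzymes, and both programmes are classical targets of the PPAR nuclear receptors and their coactivator PGC-1α.

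Because many of these genes moved together with temperature, the sequences at their starts were searched for short motifs. RefSeq promoter windows on GRCm38.p6, from 250 bases before to 50 bases after a start, were found for 29 of the 36 genes (30 windows, with 2 for Abcd3). The GC box GGGCGG, on either strand, was in 22 of the 30 windows and in 35.7% of the 32851 windows of all genes. The CCAAT box was in 13 of 30 against 37.4%, and the short cAMP response core TGACG in 9 of 30 against 20.8%. The palindromic element of the factor NRF1 was in 2 windows, those of Acad10 and Etfdh, and in 0.971% of all. None of the 30 windows held the PPAR direct repeat, AGGTCA and again AGGTCA with 1 base between (0.0396% of all), the estrogen-related receptor element TCAAGGTCA (0.423%), the full cAMP response element TGACGTCA (1.79%) or the E-box CACGTG (7.15%). The full cAMP response element contains this core, and the letters say nothing of whether a factor binds. The PPAR, estrogen-related receptor and full cAMP response elements were so rare among all windows that their absence from 30 windows shows nothing.

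The windows of 4 genes are shown, each 5′ to 3′ on its gene's strand: those of Cpt2, Etfdh and Acaa1b, whose genes were higher at 22 °C in both genotypes, and the stretch that Hadha and Hadhb share. Capitals mark the 3 GC boxes in Cpt2 (chr4:107923540-107923839, minus strand), the NRF1 element in Etfdh (chr3:79628718-79629017, minus strand) and 4 CCAAT boxes, on either strand, in Acaa1b (chr9:119157044-119157343, minus strand), 2 of which overlap. In Hadhb (chr5:30155003-30155302, plus strand) capitals mark the 228 bases that also lie in the window of Hadha on the opposite strand.
Cpt2: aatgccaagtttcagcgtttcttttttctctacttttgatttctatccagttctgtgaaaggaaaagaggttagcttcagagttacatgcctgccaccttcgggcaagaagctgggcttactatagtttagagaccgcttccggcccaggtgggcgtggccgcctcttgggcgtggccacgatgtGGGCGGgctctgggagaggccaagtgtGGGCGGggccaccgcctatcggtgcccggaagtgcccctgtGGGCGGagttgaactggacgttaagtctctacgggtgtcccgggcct
Etfdh: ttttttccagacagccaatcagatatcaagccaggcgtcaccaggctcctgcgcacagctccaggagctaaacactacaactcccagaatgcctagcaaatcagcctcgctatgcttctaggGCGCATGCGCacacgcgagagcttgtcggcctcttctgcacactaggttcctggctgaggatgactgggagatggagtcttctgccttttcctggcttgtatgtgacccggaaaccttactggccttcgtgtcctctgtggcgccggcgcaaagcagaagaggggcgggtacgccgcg
Acaa1b: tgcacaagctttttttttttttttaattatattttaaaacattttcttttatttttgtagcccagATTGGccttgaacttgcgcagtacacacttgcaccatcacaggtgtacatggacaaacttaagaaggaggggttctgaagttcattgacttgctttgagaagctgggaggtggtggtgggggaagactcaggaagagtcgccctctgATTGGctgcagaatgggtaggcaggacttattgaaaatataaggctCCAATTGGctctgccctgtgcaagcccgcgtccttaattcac
Hadhb: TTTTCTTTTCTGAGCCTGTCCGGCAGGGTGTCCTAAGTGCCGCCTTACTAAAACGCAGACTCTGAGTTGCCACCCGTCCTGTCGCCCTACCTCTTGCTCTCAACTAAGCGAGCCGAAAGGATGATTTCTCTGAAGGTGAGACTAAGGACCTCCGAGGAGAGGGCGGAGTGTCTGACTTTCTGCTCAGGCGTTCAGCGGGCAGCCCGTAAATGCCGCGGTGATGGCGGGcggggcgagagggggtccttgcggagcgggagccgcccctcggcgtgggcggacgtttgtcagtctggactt

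Library totals ran from 12751528 to 23866743 counts. Levels are CPM, counts scaled to a library of 1000000 after TMM adjustment of the library sizes, and group values are mean ± SD of 4 libraries. Akt2 averaged 204 ± 12.9 CPM in WT and 69.4 ± 10.7 in KO at 30 °C, and 232 ± 19.8 and 82.2 ± 6.03 at 22 °C, with no overlap between genotypes at either temperature. Ucp1, the heat-producing uncoupler, was 1518 ± 92.2 CPM in WT and 1786 ± 212 in KO at 30 °C, and 6178 ± 2462 and 7165 ± 1977 at 22 °C. Skeletal muscle markers made up over 0.1% of counts in 4 libraries: WT at 30 °C library 2, KO at 30 °C libraries 1 and 2, and KO at 22 °C library 1. The sum of the 12 muscle markers ran from 36.5 to 2148 CPM in WT at 30 °C, 51.3 to 308 in WT at 22 °C, 34.1 to 3406 in KO at 30 °C and 47.4 to 6062 in KO at 22 °C. Macrophage markers summed to 161 to 240 CPM in WT at 30 °C and 72.6 to 194 at 22 °C, and 6 of the 8 fell at 22 °C in each genotype. Endothelial markers summed to 981 to 1090 CPM in WT at 30 °C and 609.8 to 821 at 22 °C, and 4 of the 5 fell in WT and 2 in KO. Of the brown adipocyte markers, 7 of 8 rose in WT and 5 in KO at 22 °C. White adipocyte markers summed to 93.9 to 111, 22.1 to 110, 42.7 to 84.1 and 7.7 to 33.0 CPM in WT at 30 °C, WT at 22 °C, KO at 30 °C and KO at 22 °C. Lymphocyte markers stayed between 1.43 and 5.01 CPM in sum in all 16 libraries.

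Levels can be compared between genes only per kilobase of transcript, and on that scale the mitochondrial enzymes came first. The highest means over the 16 libraries were those of Acaa2, the mitochondrial thiolase, at 1738 CPM per kilobase, Etfb, the beta subunit of the electron transfer flavoprotein, at 1636, and Acadl, the long-chain acyl-CoA dehydrogenase, at 1607. The peroxisomal gene with the highest level was Phyh, the first enzyme of phytanic acid oxidation, at 606 CPM per kilobase. The lowest were Cpt1a, the liver form of the outer-membrane carnitine acyltransferase, at 3.55, Cpt1b, its muscle and brown fat form, at 13.5, and Abcd2, a peroxisomal fatty acid importer, at 13.6. The level of Cpt1b is uncertain, since an overlapping gene model, Gm44502, is 100% identical to it over 1841 bases. Gm44502 had no row among the deposited counts, and how reads over this stretch were assigned is not known.

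**Figure D1:**
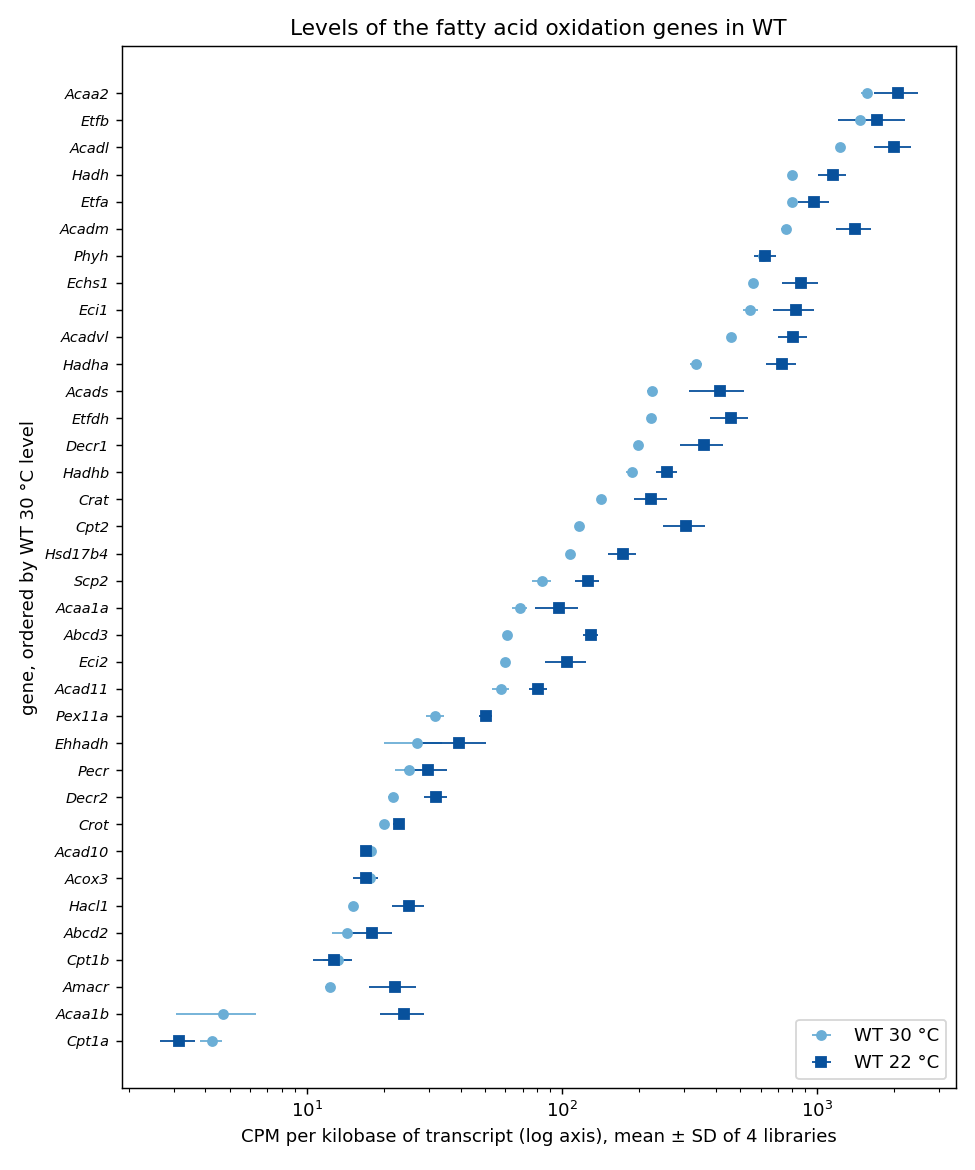
Levels of the 36 genes in WT brown fat on a log axis, in CPM per kilobase of transcript, as mean ± SD of the 4 libraries at 30 °C (circles) and the 4 at 22 °C (squares), ordered by the level at 30 °C. Levels run from 3.141 for Cpt1a at 22 °C to 2074 for Acaa2 at 22 °C, and most squares lie to the right of their circles.

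The first comparison was of WT brown fat at 22 °C with WT at 30 °C. Most of the oxidation genes were higher at 22 °C, in both organelles. Not among them were Cpt1a and Cpt1b, the outer-membrane carnitine acyltransferases, and Acox3, a peroxisomal oxidase. The largest rise was that of Acaa1b, a peroxisomal thiolase, at 5.11-fold, followed by Cpt2, the inner-membrane carnitine acyltransferase, at 2.63-fold, Hadha, the alpha subunit of the mitochondrial trifunctional protein, at 2.17-fold, and Abcd3, a peroxisomal acyl-CoA importer, at 2.14-fold. Cpt1a went the other way. By edgeR's quasi-likelihood test with Benjamini-Hochberg adjustment over 14103 genes, 27 of the 36 were higher and 1 was lower at an adjusted p under 0.05, where 20.5% of all genes tested were higher and 17.8% lower. The median log2 change of the 36 was 0.59, beside -0.03 over all genes tested, and 8 genes did not pass the test. The summed CPM of the 36 genes was 19630, 19910, 18970 and 19260 in WT at 30 °C and 33450, 35310, 27720 and 25740 at 22 °C. WT libraries 1 and 2 at 22 °C lay above libraries 3 and 4 in this sum. Their Ucp1 (8719 and 7831 CPM) was also above that of libraries 3 and 4 (4399 and 3764), and its part in the sum was not tested. White adipocyte markers summed to 22.1, 27.5, 109.5 and 49.7 CPM in libraries 1 to 4 at 22 °C. Macrophage markers summed to 81.1, 94.5, 193.9 and 72.6 CPM, so both were highest in library 3. The part of these markers was not tested either. In bulk tissue, fewer cells of a type and less RNA per cell cannot be told apart. General adipocyte markers summed to 9495 to 10720 CPM in WT at 30 °C and 13320 to 19820 at 22 °C, and 3 of 5 rose. The brown adipocyte markers summed to 4556 to 4797 and 8233 to 15500 CPM, with 7 of 8 rising. Their part in the rise of the oxidation genes was not tested.

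Of the 5 carnitine shuttle genes, 3 rose in WT (Cpt2, Crat and Crot), 1 fell (Cpt1a), and Cpt1b did not pass the test. Cpt2 was at 279, 267, 284 and 275 CPM in the WT libraries at 30 °C and at 790.2, 885, 645 and 587 at 22 °C. Every library at 22 °C was above every library at 30 °C, and the log2 change was 1.39 ± 0.13 (SE; adjusted p = 1.54e-06). Crat, which makes acetylcarnitine and sits inside the organelles, was at 601, 584, 607 and 614 CPM at 30 °C and 1013, 1095, 906 and 774 at 22 °C. The groups were again separate, with a log2 change of 0.65 ± 0.093 (adjusted p = 6.91e-05). Crot, the peroxisomal carnitine octanoyltransferase that readies shortened chains for export, was at 57.5, 59.0, 62.6 and 61.9 CPM at 30 °C and 66.4, 65.0, 73.3 and 69.5 at 22 °C. This was the smallest rise among the 27, 0.19 ± 0.066 (adjusted p = 0.0364), and it was lost in 13 of 19 alternative settings, among them leaving out WT at 22 °C library 1, 3 or 4 or any 1 of the WT libraries at 30 °C (adjusted p = 0.0504 to 0.114). Cpt1b was at 34.4, 34.6, 43.9 and 39.7 CPM at 30 °C and 42.2, 29.3, 34.2 and 42.6 at 22 °C, with the groups overlapping and a log2 difference of -0.04 ± 0.14 (adjusted p = 0.845). Cpt1a was at 20.9, 17.9, 17.9 and 16.5 CPM at 30 °C and 12.8, 14.0, 11.2 and 16.3 at 22 °C. Its fall of 0.43 on the log2 scale (SE 0.16; adjusted p = 0.041) was lost in 9 of 19 settings, which included leaving out any 1 of the WT libraries at 30 °C or of WT at 22 °C libraries 1 to 3 (adjusted p = 0.0536 to 0.123).

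The acyl-CoA dehydrogenases open each turn of the mitochondrial cycle, each for its own range of chain lengths, and 5 of the 6 rose. Acadvl, for very long chains, was at 988, 1013, 978 and 1012 CPM at 30 °C and 2025, 1831, 1571 and 1554 at 22 °C, a log2 change of 0.81 ± 0.095 (adjusted p = 1.45e-05). Acadm, for medium chains, was at 1538, 1633, 1542 and 1466 CPM at 30 °C and 3346, 3163, 2675 and 2337 at 22 °C, a change of 0.90 ± 0.11 (adjusted p = 2.08e-05). Acadl, for long chains, was at 2313, 2426, 2319 and 2371 CPM at 30 °C and 4298, 4456, 3545 and 3105 at 22 °C, a change of 0.71 ± 0.10 (adjusted p = 7.9e-05). In all 3 genes the groups did not overlap, and libraries 1 and 2 were the highest at 22 °C. Acads, for short chains, and Acad11, another member of the family, rose by 0.88 ± 0.12 and 0.49 ± 0.096 (adjusted p = 6.75e-05 and 0.000935), also without overlap. Acad10, a less characterised member, was at 66.9, 66.9, 67.8 and 70.4 CPM at 30 °C and 69.3, 65.6, 61.4 and 65.0 at 22 °C, and its groups overlapped (adjusted p = 0.539). Acad10 is 95.3% identical to its neighbour Acad12 over 1614 bases, so the split of reads between them is uncertain.

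The 5 enzymes that complete the mitochondrial cycle by hydration, dehydrogenation and thiolysis all rose in WT. Hadha and Hadhb encode the alpha and beta subunits of the trifunctional protein, which carries out these steps on long chains, and their genes lie head to head on chromosome 5 with 85 bases between the annotated ends (chr5:30118304-30155162, minus strand, and chr5:30155248-30184593, plus strand). Hadha was at 1312, 1360, 1440 and 1272 CPM at 30 °C and 3319, 3207, 2569 and 2601 at 22 °C, a log2 change of 1.12 ± 0.10 (adjusted p = 1.64e-06). Hadhb was at 375, 414, 375 and 379 CPM at 30 °C and 603, 517, 512 and 487 at 22 °C, a smaller change of 0.46 ± 0.083 (adjusted p = 0.000524). Neither gene's groups overlapped. Hadhb is 99.8% identical over 1428 bases to Gm13910, which had its own 204 to 530 counts a library, so a part of Hadhb reads may be assigned elsewhere. Echs1, the short-chain hydratase, was at 899.5, 909, 841 and 853 CPM at 30 °C and 1435, 1610, 1241 and 1113 at 22 °C, a change of 0.62 ± 0.097 (adjusted p = 0.000142). Acaa2 was at 2423, 2513, 2259 and 2294 CPM at 30 °C and 3350, 3917, 2692 and 2619 at 22 °C, a change of 0.41 ± 0.11 (adjusted p = 0.00795). In both, the groups stayed apart, and library 2 was the highest of those at 22 °C. Hadh, the medium- and short-chain dehydrogenase, rose by 0.53 ± 0.083 (adjusted p = 0.000168).

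The 3 enzymes that fit unsaturated chains into the cycle all rose, each without overlap between the WT groups. Decr1, the mitochondrial dienoyl-CoA reductase, was at 604, 599.9, 562 and 584 CPM at 30 °C and 1140, 1314, 949 and 848 at 22 °C, a log2 change of 0.86 ± 0.12 (adjusted p = 6.02e-05). Eci2, an enoyl-CoA isomerase, was at 108, 102, 102 and 106 CPM at 30 °C and 189, 227, 165 and 151 at 22 °C, a change of 0.81 ± 0.11 (adjusted p = 4.18e-05). Eci1, the mitochondrial isomerase, was at 664, 637, 566 and 626 CPM at 30 °C and 987, 1158, 823 and 783 at 22 °C, a change of 0.59 ± 0.11 (adjusted p = 0.000578). Eci2 is 91.8% identical to Eci3, which had 137 to 351 counts a library and lower mean levels in WT at 22 °C (10.8 CPM) than at 30 °C (16.9 CPM).

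Of the electron transfer flavoprotein genes, Etfdh and Etfa rose, and Etfb did not pass the test. Etfdh, the dehydrogenase that hands the carrier's electrons to ubiquinone, was at 519.9, 528, 543 and 525 CPM at 30 °C and 1308, 1185, 965 and 908 at 22 °C, a log2 change of 1.04 ± 0.12 (adjusted p = 8.74e-06). Etfa, the alpha subunit, was at 1119, 1107, 1074 and 1129 CPM at 30 °C and 1504, 1524, 1261 and 1149 at 22 °C, a change of 0.30 ± 0.082 (adjusted p = 0.0101) that was lost in 3 of 19 settings. The groups of both genes were separate, though Etfa in library 4 at 22 °C was only just above the highest library at 30 °C. Etfb was at 1409, 1334, 1231 and 1303 CPM at 30 °C and 1536, 2164, 1261 and 1159 at 22 °C, where library 2 stood above all others, library 3 lay within the range at 30 °C and library 4 below it (adjusted p = 0.255).

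Among the 7 genes of peroxisomal beta-oxidation and its accessory steps, 5 rose, and Acox3 and Ehhadh did not pass the test. Acaa1b (chr9:119148023-119157093, minus strand) was at 5.59, 7.11, 11.9 and 7.13 CPM at 30 °C and 35.1, 52.4, 37.9 and 36.9 at 22 °C. Its lowest library at 22 °C, 35.1 CPM, was far above its highest at 30 °C, 11.9 CPM, and the log2 change was 2.35 ± 0.25 (adjusted p = 6.49e-06). Acaa1a, the other thiolase of the pair (chr9:119339676-119350299, plus strand), was at 123, 128, 109.8 and 121 CPM at 30 °C and 142, 213, 179 and 148 at 22 °C, a change of 0.50 ± 0.11 (adjusted p = 0.00225). The thiolase transcripts are 96.6% identical over 1428 bases, and the counting may have split their shared reads, so each value is uncertain to that extent. Hsd17b4, the D-bifunctional protein, was at 299, 286, 276 and 297 CPM at 30 °C and 507, 523, 428 and 405 at 22 °C, a change of 0.69 ± 0.086 (adjusted p = 2.24e-05) without overlap. Scp2, which holds a thiolase for branched chains, and Decr2, the peroxisomal dienoyl-CoA reductase, rose by 0.59 ± 0.094 and 0.56 ± 0.10 (adjusted p = 0.000168 and 0.000526). Acox3, an oxidase of branched chains, was at 68.6, 69.6, 74.8 and 68.6 CPM at 30 °C and 63.9, 58.9, 74.9 and 73.7 at 22 °C, with overlapping groups (adjusted p = 0.648). Ehhadh, the L-bifunctional protein, had the largest fitted SE of the 36, at 95.3, 61.8, 63.1 and 101 CPM at 30 °C and 85.0, 159, 98.9 and 126 at 22 °C (log2 difference 0.55 ± 0.44; adjusted p = 0.344).

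Of the 4 genes of branched-chain steps and enoyl-CoA reduction, Amacr and Hacl1 rose, and Phyh and Pecr did not pass the test. Amacr, the racemase that makes branched chains fit for oxidation, was at 31.4, 32.1, 30.0 and 33.2 CPM at 30 °C and 65.5, 68.2, 52.0 and 42.5 at 22 °C, a log2 change of 0.85 ± 0.12 (adjusted p = 9.52e-05). Hacl1, the lyase of phytanic acid breakdown, was at 39.6, 40.1, 40.6 and 39.9 CPM at 30 °C and 67.5, 79.0, 63.3 and 56.0 at 22 °C, a change of 0.73 ± 0.12 (adjusted p = 0.000222). Both pairs of groups were separate. Phyh, which acts before Hacl1 in the same route, was at 849.7, 929, 832 and 906 CPM at 30 °C and 981, 969.5, 843 and 811 at 22 °C, with overlap and a difference of 0.04 ± 0.072 (adjusted p = 0.722). Pecr, a peroxisomal enoyl-CoA reductase, ran from 25.2 to 32.8 CPM at 30 °C and from 29.2 to 44.2 at 22 °C (adjusted p = 0.183).

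At the peroxisomal membrane, Abcd3 and Pex11a, a protein of peroxisome division, rose, and Abcd2 did not pass the test. Abcd3 was at 214, 206, 211 and 217 CPM at 30 °C and 484, 448, 414 and 466 at 22 °C, a log2 change of 1.10 ± 0.10 (adjusted p = 2.28e-06). Pex11a was at 78.9, 66.8, 73.7 and 66.3 CPM at 30 °C and 116, 120.1, 110 and 105 at 22 °C, a change of 0.66 ± 0.098 (adjusted p = 9.64e-05). In neither did the groups overlap, and the libraries of each group lay close together. Abcd2 was at 90.5, 67.6, 74.4 and 85.0 CPM at 30 °C and 73.6, 97.9, 121 and 106 at 22 °C, where library 1 lay within the range at 30 °C (adjusted p = 0.141). Of the 27 rises in WT, 25 passed the test in each of the 19 alternative settings. The exceptions were Crot and Etfa.

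**Figure D2:**
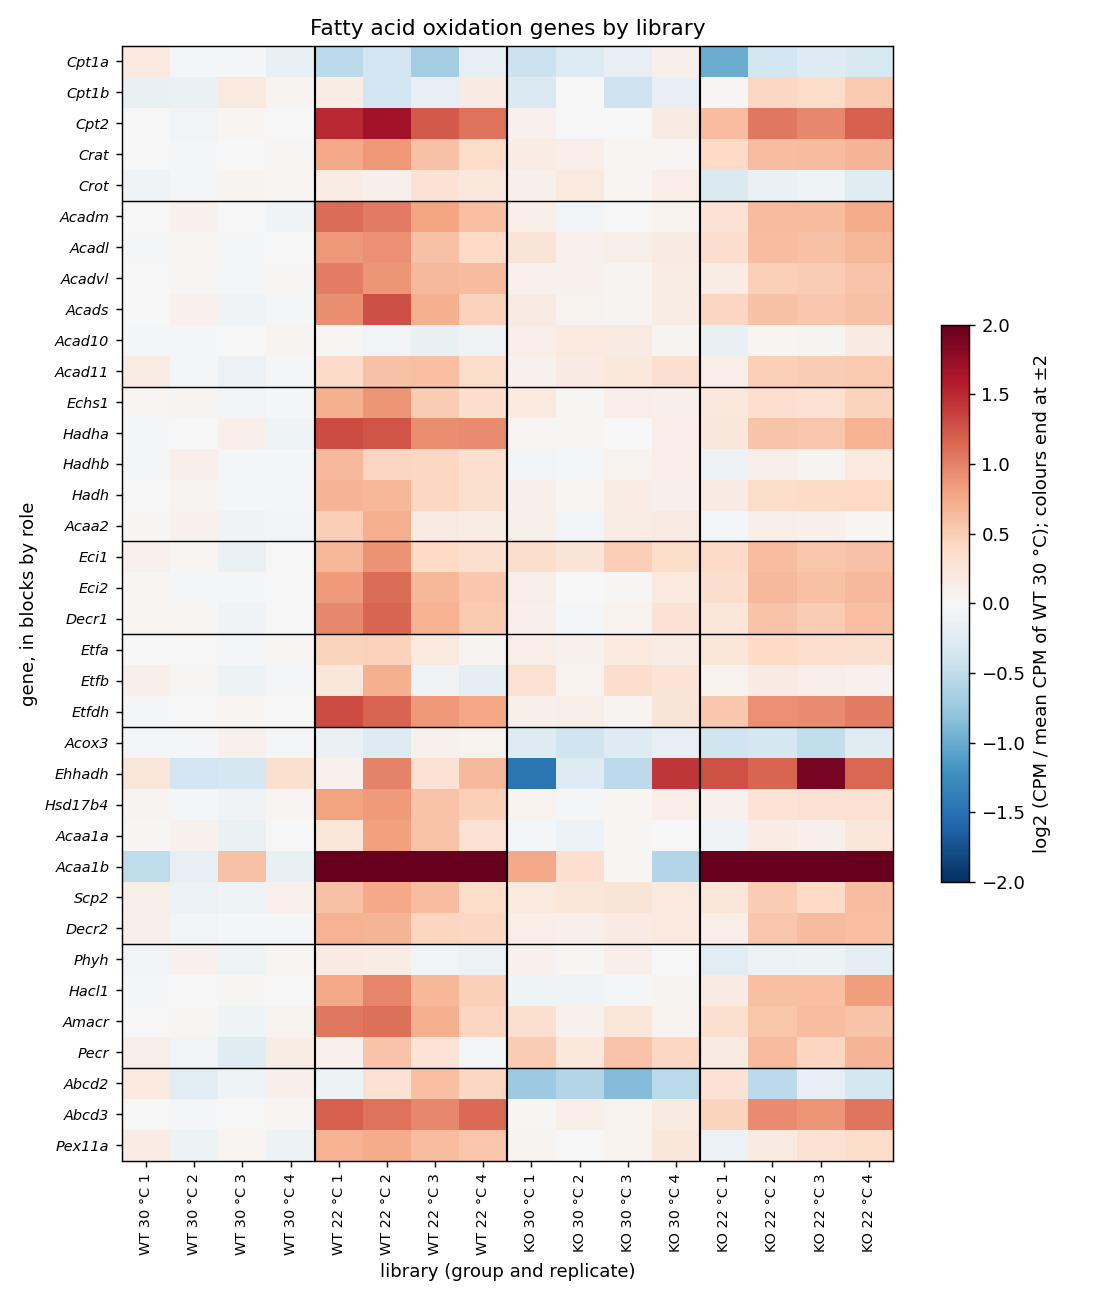
Level of each of the 36 genes (rows, in blocks by role) in each of the 16 libraries (columns, in 4 blocks by group), as log2 of CPM over the gene's mean in WT at 30 °C, with colours ending at ±2. The WT libraries at 22 °C are red for most genes, libraries 1 and 2 more so than 3 and 4. KO libraries at 22 °C are paler than WT libraries 1 and 2 for most genes, and KO library 1 is the palest. Summed CPM of KO libraries 2 to 4 was 26500, 26320 and 27230, beside 27720 and 25740 in WT libraries 3 and 4. Acaa1b is at the end of the scale at 22 °C in both genotypes.

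The second comparison was the same change of temperature in KO brown fat. Here 17 genes were higher at 22 °C and 1 was lower, where 13.8% of all genes tested were higher and 13% lower. The median log2 change was 0.29, beside 0.02 over all genes. Cpt2, Abcd3, Etfdh and Acaa1b rose again, by 1.89-, 1.68-, 1.67- and 4.19-fold, and Crot fell. The summed CPM of the 36 genes was 21420, 19990, 21210 and 21780 in KO at 30 °C and 22480, 26500, 26320 and 27230 at 22 °C, so the groups did not overlap and library 1 was the lowest at 22 °C. That library also had the most skeletal muscle marker counts of all 16 (0.578%) and the lowest Ucp1 of its group (4275 CPM against 7762 to 8756), and the part of either in its low sum was not tested. General adipocyte markers summed to 9067 to 10990 CPM in KO at 30 °C and 12810 to 14070 at 22 °C, with 1 of 5 rising, and 1 of the 2 white adipocyte markers tested fell. Their part in the KO changes was also not tested. The WT and KO temperature comparisons share no library, and 15 genes rose in both, which is 15 of the 27 in WT and 15 of the 17 in KO. Of all genes tested, 9.12% were higher in both. Another 12 passed as higher in WT and not in KO, against 11.4% of all genes (Acaa1a, Acaa2, Acad11, Amacr, Crot, Echs1, Eci1, Etfa, Hadhb, Hsd17b4, Pex11a and Scp2), while Cpt1b and Abcd2 passed in KO and not in WT. This division depended on the tool: with limma-voom 7 of the 12 also passed as higher in KO (Acad11, Amacr, Echs1, Eci1, Etfa, Hsd17b4 and Scp2, with adjusted p of 0.00264 to 0.0375). Whether a change differed between genotypes is a question for the interaction test.

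In the carnitine shuttle of KO brown fat, Cpt2 was at 292, 274, 274 and 310.1 CPM at 30 °C and 425, 573, 536 and 636 at 22 °C, a log2 change of 0.92 ± 0.13 (adjusted p = 0.000155). Crat was at 668, 662, 617 and 612 CPM at 30 °C and 797, 921, 930.3 and 959.6 at 22 °C, a change of 0.50 ± 0.093 (adjusted p = 0.00135). The groups of both genes were separate, and library 1 was the lowest at 22 °C. Cpt1b was at 31.3, 38.3, 28.6 and 34.0 CPM at 30 °C and 38.8, 50.8, 49.1 and 54.8 at 22 °C, a rise of 0.55 ± 0.14 (adjusted p = 0.00915), with library 1 at 22 °C just above the highest at 30 °C. Cpt1b is also the skeletal muscle form. Of the muscle-rich KO libraries, library 2 at 30 °C had the highest Cpt1b of its group, and library 1 at 30 °C lay between libraries 3 and 4 of its group. Library 1 at 22 °C had the lowest of its group. Without the 4 muscle-rich libraries the rise was 0.72, and the part of skeletal muscle in it was not tested. Crot was at 64.8, 68.7, 61.9 and 65.9 CPM at 30 °C and 49.1, 55.1, 57.0 and 51.1 at 22 °C, so every library at 22 °C lay below every library at 30 °C. Its fall of 0.30 on the log2 scale (SE 0.067; adjusted p = 0.0042) passed the test in 18 of 19 settings and was lost without the 4 muscle-rich libraries. Cpt1a ran from 13.6 to 19.6 CPM at 30 °C and from 9.19 to 15.2 at 22 °C (log2 difference -0.28 ± 0.16; adjusted p = 0.203).

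Of the 6 acyl-CoA dehydrogenases, 4 rose in KO. Acadm was at 1677, 1486, 1558 and 1624 CPM at 30 °C and 1894, 2395, 2404 and 2597 at 22 °C, a log2 change of 0.55 ± 0.11 (adjusted p = 0.00213). Acadl was at 2809, 2512, 2565 and 2670 CPM at 30 °C and 2997, 3618, 3539 and 3731 at 22 °C, a change of 0.40 ± 0.10 (adjusted p = 0.0105). Acadvl was at 1057, 1054, 1041 and 1104 CPM at 30 °C and 1107, 1389, 1414 and 1477 at 22 °C, where library 1 was only just above the highest at 30 °C, a change of 0.34 ± 0.095 (adjusted p = 0.0158). Acads rose by 0.42 ± 0.12 (adjusted p = 0.0214), and none of the 4 genes had overlapping groups. The calls of Acadl, Acadvl and Acads were lost without KO at 22 °C library 2 or 4, and that of Acads also without KO at 30 °C library 3 or 4 (adjusted p = 0.0504 to 0.0882 over these). Acad11 did not pass (difference 0.22 ± 0.095; adjusted p = 0.098), and Acad10 was at 74.7, 77.6, 77.2 and 70.7 CPM at 30 °C and 61.4, 69.7, 70.2 and 76.5 at 22 °C, with overlap (adjusted p = 0.247).

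Only 2 of the 5 hydration, dehydrogenation and thiolysis genes passed the test in KO, Hadha and Hadh. Hadha was at 1390, 1365, 1353 and 1468 CPM at 30 °C and 1574, 1999, 1968 and 2177 at 22 °C, a log2 change of 0.47 ± 0.10 (adjusted p = 0.00385) with no overlap. Hadhb was at 371, 378, 405 and 421 CPM at 30 °C and 357, 417, 401 and 444 at 22 °C, with library 1 at 22 °C below all those at 30 °C and a difference of 0.04 ± 0.083 (adjusted p = 0.764). Echs1 was at 1003, 888, 965 and 942 CPM at 30 °C and 1015, 1105, 1083 and 1194 at 22 °C, which did not overlap but gave an adjusted p of 0.116. Acaa2 was at 2579, 2287, 2635 and 2701 CPM at 30 °C and 2304, 2572, 2557 and 2450 at 22 °C, an overlapping pair with a difference of -0.05 ± 0.11 (adjusted p = 0.786). The rise of Hadh, 0.23 ± 0.083 (adjusted p = 0.0483), was lost in 14 of 19 settings, among them leaving out KO at 22 °C library 2, 3 or 4 or any 1 of the KO libraries at 30 °C (adjusted p = 0.0755 to 0.182).

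Among the enzymes of unsaturated chains, Eci2 was at 113, 105, 106 and 119.7 CPM at 30 °C and 134, 164, 157 and 164 at 22 °C, a log2 change of 0.48 ± 0.11 (adjusted p = 0.00475). Decr1 was at 629.7, 576, 618 and 718 CPM at 30 °C and 698, 871, 839 and 887 at 22 °C, a change of 0.37 ± 0.12 (adjusted p = 0.0299), though its groups overlapped. The call was lost in 9 of 19 settings, among them leaving out KO at 22 °C library 2, 3 or 4 or KO at 30 °C library 1, 2 or 3 (adjusted p = 0.0642 to 0.118). Eci1 was at 794, 745, 872 and 804 CPM at 30 °C and 809, 958, 917 and 934 at 22 °C and did not pass (adjusted p = 0.258). Its KO libraries at 30 °C were already above all WT libraries at 30 °C. Etfdh was at 568, 576, 551 and 633 CPM at 30 °C and 771, 999, 1021 and 1086 at 22 °C, a change of 0.74 ± 0.12 (adjusted p = 0.000407). The subunits did not pass, with Etfa at 1213, 1170, 1271 and 1231 CPM at 30 °C and 1312, 1455, 1397 and 1382 at 22 °C (adjusted p = 0.11). Etfb was at 1628, 1384, 1681 and 1590 CPM at 30 °C and 1388, 1475, 1431 and 1396 at 22 °C (adjusted p = 0.491). Of the subunits, Etfb alone had overlapping groups.

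In the peroxisome, Acaa1b was at 13.4, 10.04, 8.08 and 5.28 CPM in KO at 30 °C and 34.8, 43.3, 40.02 and 35.7 at 22 °C, a log2 change of 2.07 ± 0.25 (adjusted p = 6.13e-05). Acaa1a was at 118, 112, 123 and 121 CPM at 30 °C and 114, 134, 129 and 141 at 22 °C, and Hsd17b4 at 304, 283, 296 and 318 and 308, 352, 358 and 357. In these 2 genes library 1 at 22 °C lay within the range at 30 °C, and neither passed the test (adjusted p = 0.418 and 0.103). Decr2 rose by 0.35 ± 0.10 (adjusted p = 0.0188; lost in 6 of 19 settings, among them leaving out KO at 22 °C library 2, 3 or 4 or KO at 30 °C library 4, with an adjusted p of 0.0539 to 0.0927), and Scp2 did not pass (0.23 ± 0.093; adjusted p = 0.0838). Ehhadh was at 29.2, 66.8, 55.8 and 216 CPM at 30 °C and 194, 179, 299.7 and 179 at 22 °C. Library 4 at 30 °C was within the range at 22 °C and stood far above the other 3. The difference of 1.21 ± 0.45 did not pass (adjusted p = 0.0564); without that library it was 2.05 and passed (adjusted p = 0.000667). Acox3 was at 59.1, 53.5, 58.8 and 62.8 CPM at 30 °C and 53.6, 55.8, 49.9 and 59.4 at 22 °C, with overlap (adjusted p = 0.414).

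Hacl1 was at 37.9, 38.0, 39.5 and 41.5 CPM in KO at 30 °C and 44.99, 60.7, 61.1 and 71.4 at 22 °C, a log2 change of 0.60 ± 0.12 (adjusted p = 0.00195). Amacr was at 39.7, 33.8, 37.3 and 33.3 CPM at 30 °C and 39.5, 46.8, 48.8 and 47.3 at 22 °C and just missed the threshold (adjusted p = 0.0553). Phyh was at 928, 894, 941 and 875 CPM at 30 °C and 762, 813, 822 and 775 at 22 °C, where all 4 libraries lay below those at 30 °C without passing the test (adjusted p = 0.0528). Pecr was close to level between temperatures (difference 0.07 ± 0.14; adjusted p = 0.762). At the peroxisomal membrane, Abcd3 was at 216, 232, 223 and 239.8 CPM at 30 °C and 287, 409, 389 and 446 at 22 °C, a change of 0.75 ± 0.10 (adjusted p = 0.00016). Abcd2 was at 47.9, 52.8, 43.7 and 54.5 CPM at 30 °C and 97.4, 55.0, 70.8 and 61.9 at 22 °C, a change of 0.52 ± 0.17 (adjusted p = 0.0355) that was lost in 8 of 19 settings, among them leaving out KO at 22 °C library 1, its highest, or library 3, or KO at 30 °C library 1, 2 or 3 (adjusted p = 0.0517 to 0.114). Pex11a was at 74.6, 71.1, 74.8 and 83.2 CPM at 30 °C and 66.1, 81.3, 88.3 and 92.1 at 22 °C, with library 1 at 22 °C below the range at 30 °C and a difference of 0.11 ± 0.097 (adjusted p = 0.43).

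The count of 17 rises in KO depended on the tool and on single libraries. It was 25 with limma-voom, which added those 7 genes and Ehhadh, and 10 with upper-quartile factors. Of all 14103 genes tested, 1943 were higher in the main fit, 3079 with limma-voom and 1179 with upper-quartile factors. It was 11 without KO at 22 °C library 2 or library 4, and also 11 without the 4 muscle-rich libraries. All genes called higher then numbered 1399, 1341 and 955, in that order, and 1821 without KO at 22 °C library 1. It was 19 without KO at 22 °C library 1, where Acad11, Amacr and Scp2 passed (adjusted p = 0.0211 to 0.0395) and Abcd2 did not. Cpt1b, Cpt2, Crat, Acadm, Hadha, Eci2, Etfdh, Acaa1b, Hacl1 and Abcd3 rose in all 19 alternative settings.

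The third comparison was of KO with WT at 22 °C, the effect of the knockout at the cooler temperature. It shares the WT libraries at 22 °C with the first comparison and the KO libraries at 22 °C with the second. No gene of the 36 was higher in KO and 12 were lower, where 7.52% of all genes tested were higher and 10.1% lower. The 12 were spread over both organelles: Cpt2 and Crot of the shuttle, Acadvl, 4 of the 5 genes of hydration, dehydrogenation and thiolysis (Hadha, Hadhb, Echs1 and Acaa2), Decr1, and in the peroxisome Hsd17b4, Acaa1a, Acox3 and Pex11a. Their levels in KO were fitted at 0.66 to 0.815 times those in WT, and the median log2 difference of all 36 was -0.22, beside 0.02 over all genes. The summed CPM of the 36 genes ran from 22480 to 27230 in KO and from 25740 to 35310 in WT, so the groups overlapped in the sum.

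Hadha showed the largest difference of the 12, -0.60 ± 0.10 on the log2 scale (adjusted p = 0.00138), with its highest KO library, 2177 CPM, below its lowest WT library, 2569 CPM. Its partner Hadhb differed by -0.39 ± 0.083 (adjusted p = 0.00577), also without overlap. Pex11a differed by -0.46 ± 0.097 and Hsd17b4 by -0.44 ± 0.085 (adjusted p = 0.00534 and 0.00334). Crot differed by -0.37 ± 0.067 (adjusted p = 0.00202), with every KO library (49.1 to 57.0 CPM) below every WT library (65.0 to 73.3 CPM). Acadvl, Acaa2 and Acaa1a differed by -0.37 ± 0.095, -0.35 ± 0.11 and -0.40 ± 0.11 (adjusted p = 0.0147, 0.0376 and 0.0229), and in all of these the groups were separate. Cpt2, Decr1, Echs1 and Acox3 differed by -0.42 ± 0.13, -0.37 ± 0.12, -0.30 ± 0.096 and -0.31 ± 0.085 (adjusted p = 0.0317, 0.0442, 0.0446 and 0.021), and in these 4 the KO and WT libraries overlapped.

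The other 24 genes did not pass, and some were level with WT or above it. Cpt1b was 0.38 ± 0.14 higher in KO on the log2 scale without passing the test (adjusted p = 0.0657). Ehhadh had all 4 KO libraries (179 to 299.7 CPM) above all 4 WT libraries (85.0 to 159 CPM), and its difference of 0.86 ± 0.44 did not pass either (adjusted p = 0.181). Acaa1b, which rose most with temperature, was at 38.4 ± 3.95 CPM in KO and 40.6 ± 7.94 in WT, a difference of -0.08 ± 0.24 (adjusted p = 0.847). Etfa and Crat were also near level, at 0.03 ± 0.082 and -0.07 ± 0.093. Brown adipocyte markers summed to 8233 to 15500 CPM in WT and 8857 to 13690 in KO at 22 °C with 1 of 8 higher in KO (Ppargc1a). General adipocyte markers summed to 13320 to 19820 and 12810 to 14070 with 2 of 5 lower in KO, and 1 of the 2 white adipocyte markers tested was lower in KO. Endothelial markers summed to 609.8 to 821 and 733.5 to 941 with 3 of 5 higher in KO. Their part in the oxidation genes' differences was not tested.

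Hadha and Crot were lower in KO in all 19 alternative settings, and Hadhb, Hsd17b4 and Pex11a in 18, the exception being the fit on only the 2 groups compared. Acadvl kept its call with any 1 library left out. The other calls were lost on leaving out a single library of the groups compared: Acox3 without library 3 of either genotype and Acaa1a without KO library 1 or WT library 2 or 3. Cpt2 was lost without KO library 1 or 3 or WT library 1 or 2, and Echs1 without KO library 1, 2 or 3 or WT library 1 or 2. Acaa2 and Decr1 were lost without any 1 KO library or WT library 1 or 2. The adjusted p of these 6 genes was then 0.0508 to 0.126. With limma-voom, Cpt2, Echs1, Acaa2 and Decr1 also lost their calls, at -0.25, -0.19, -0.20 and -0.20 (adjusted p = 0.117 to 0.166). Echs1, Acaa2 and Decr1 were lost without a low-count filter too (adjusted p = 0.0639 to 0.0806). Without KO at 22 °C library 1 or WT at 22 °C library 4, Cpt1b passed as higher in KO (0.46 to 0.47; adjusted p = 0.0278 to 0.0397). Abcd2 passed as lower without library 1 of either genotype (adjusted p = 0.00814 to 0.0242). Acadm did so without library 4 of either (adjusted p = 0.0142 to 0.0466), and Abcd3 without KO library 4 (adjusted p = 0.0454). Acads, Amacr, Eci2, Hadh and Phyh did so without WT library 4 (adjusted p = 0.00754 to 0.0343). The count of 12 became 18 without WT at 22 °C library 4, 7 without WT at 22 °C library 2 or KO at 22 °C library 3, 8 without KO at 22 °C library 1, 6 without the muscle-rich libraries and 2 in the fit on only the 2 groups. Over all genes tested, 1421 of 14103 were lower in the main fit. In the order of those fits, the number lower was 1762, 1225, 1084, 1212, 887 of 14397 and 441 of 13149.

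**Figure D3:**
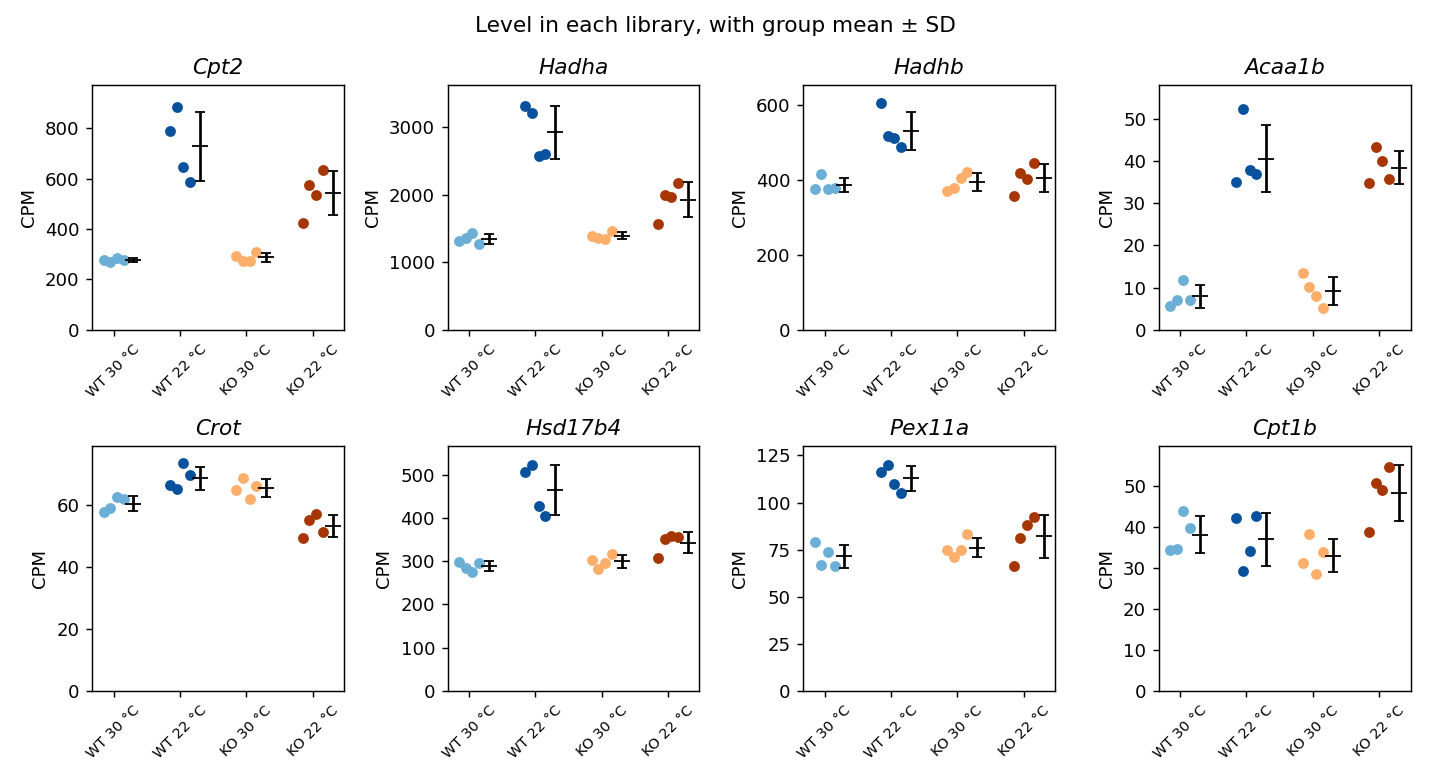
Level in CPM of 8 genes in each library of the 4 groups, with the group mean ± SD beside the points and each axis starting at 0. Cpt2, Hadha and Acaa1b were higher at 22 °C in both genotypes, Hadhb, Hsd17b4 and Pex11a passed the test for a rise in WT and not in KO, Crot fell in KO, and Cpt1b rose in KO.

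The interaction asked whether the effect of the knockout differed between temperatures, which is the same as asking whether the effect of temperature differed between genotypes. It was called for 4 genes, all with a negative value, where 3.14% of all genes tested were called, 2.39% in that direction and 0.752% in the other. Crot had a log2 interaction of -0.49 ± 0.094 (adjusted p = 0.0138): it rose with cold in WT and fell in KO. The rise in WT was lost in 13 of 19 alternative settings and the fall in KO in 1 of 19. Hadha had -0.65 ± 0.14 (adjusted p = 0.0276), and its rise was 2.17-fold in WT and 1.38-fold in KO. Pex11a had -0.55 ± 0.14 and Hsd17b4 -0.49 ± 0.12 (adjusted p = 0.0441 and 0.0402). For Hadhb the value was -0.42 ± 0.12 (adjusted p = 0.0645) and for Acadvl -0.47 ± 0.13 (adjusted p = 0.0702), neither of which passed. Of the genes that went the other way, Cpt1b had 0.59 ± 0.20 (adjusted p = 0.106) and Ehhadh 0.66 ± 0.62 (adjusted p = 0.563). The median over the 36 genes was -0.34, and 32 of the 36 values were negative. The Crot interaction was kept in 25 of 26 alternative settings and lost without the muscle-rich libraries, where 0 of the 36 genes were called. Of all 14397 genes tested in that fit, 20 had a positive and 76 a negative interaction. The interactions of Hadha, Hsd17b4 and Pex11a were lost in 11, 17 and 18 settings. None of these 3 passed without any 1 of the WT libraries at 30 °C, KO at 30 °C library 1, 3 or 4, or KO at 22 °C library 2 or 3 (adjusted p at most 0.115 over the libraries whose removal ended a call). The count of 4 was 13 without WT at 22 °C library 4 (adding Acaa2, Acads, Acadvl, Amacr, Decr1, Echs1, Eci1, Hadhb and Scp2, with adjusted p of 0.0212 to 0.0475). It was 2 without WT at 22 °C library 1 or KO at 22 °C library 1, and it was 1 without any 1 of the WT libraries at 30 °C, KO at 30 °C library 1, 3 or 4, or KO at 22 °C library 2 or 3. Negative interactions over all genes numbered 337 in the main fit and 718 without WT at 22 °C library 4. They numbered 298 and 287 without library 1 of WT or KO at 22 °C, and 123 to 183 where 1 member was called.

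**Figure D4:**
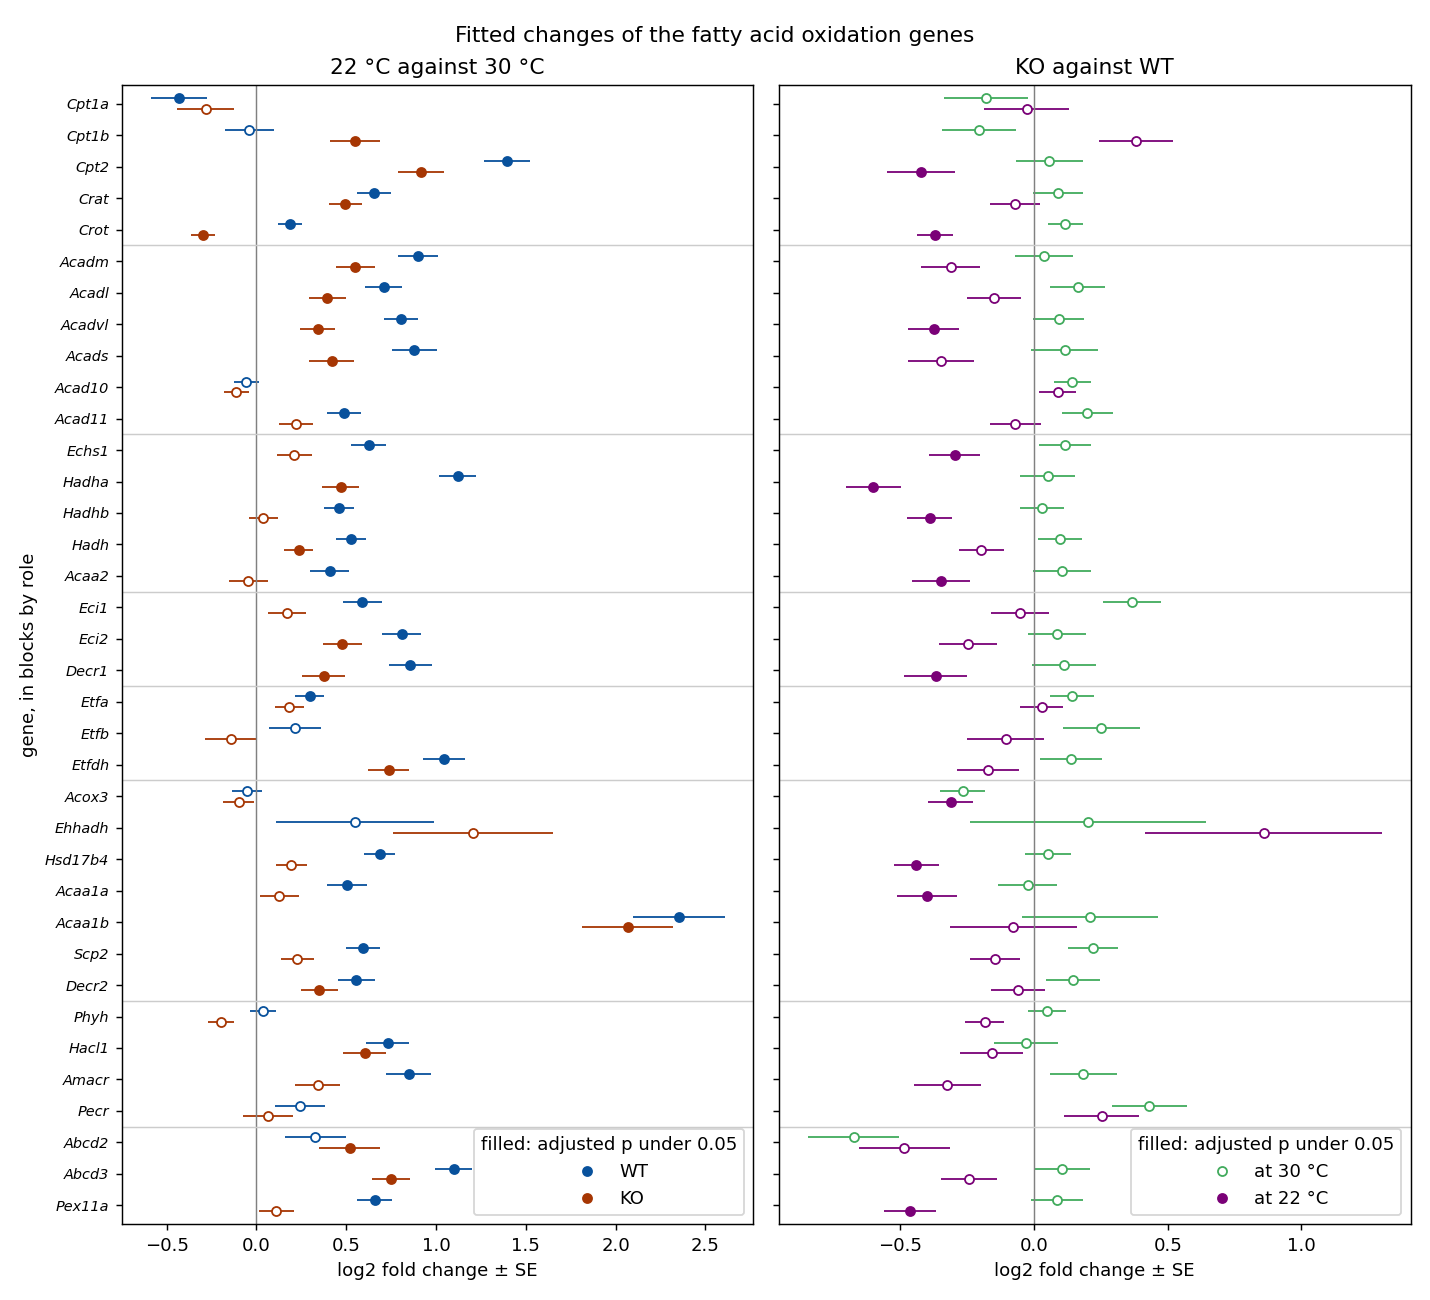
Fitted log2 fold change ± SE of each gene (rows, in blocks by role), on the left for 22 °C against 30 °C in WT and KO and on the right for KO against WT at each temperature, with filled symbols at an adjusted p under 0.05. Most WT temperature changes lie to the right of those in KO, and at 22 °C the 12 filled symbols of KO against WT all lie below 0, while none is filled at 30 °C.

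At 30 °C, KO and WT did not differ in any of the 36 genes by edgeR's test, where 0.0425% of all genes tested were called, 0.0284% higher and 0.0142% lower. At an unadjusted p under 0.05, 3 were higher in KO (Eci1, Scp2 and Pecr) and 2 lower (Abcd2 and Acox3). DESeq2 called 0 and limma-voom 2, Eci1 higher and Abcd2 lower. The differences ran from -0.67 ± 0.17 for Abcd2 to 0.43 ± 0.14 for Pecr on the log2 scale, with a median of 0.11. Abcd2 was at 43.7 to 54.5 CPM in KO and 67.6 to 90.5 in WT at 30 °C, with no overlap (edgeR adjusted p = 0.684), and was also lower in KO at 22 °C by -0.48 ± 0.17 without passing (adjusted p = 0.0603). Eci1 was at 804 ± 52.5 CPM in KO and 623 ± 41.2 in WT (difference 0.37 ± 0.11; adjusted p = 0.947). For Hadha the difference at 30 °C was 0.05 ± 0.10, for Cpt2 0.06 ± 0.13 and for Crot 0.12 ± 0.066.

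Further genes of the pathway and its surroundings were taken from lists. Of 20 other genes of fatty acid oxidation tested, 13 rose and 2 fell (Acad12 and Oxct1) with cold in WT. In KO 10 rose and 2 fell, and 2 were higher (Slc22a5 and Slc27a2) and 7 lower in KO than in WT at 22 °C. For this list and those below, the shares of all genes tested were 20.5% higher and 17.8% lower with cold in WT and 13.8% and 13% in KO. In KO against WT at 22 °C they were 7.52% and 10.1%. Without the muscle-rich libraries, 6 rose in KO, and 1 was higher and 4 lower in KO at 22 °C. Of all 14397 genes tested in that fit, 955 rose in KO, and 545 were higher and 887 lower in KO at 22 °C. Slc25a20, the carnitine-acylcarnitine exchanger that works between Cpt1 and Cpt2, rose by 1.10 ± 0.11 in WT and 0.80 ± 0.11 in KO on the log2 scale (adjusted p = 4.59e-06 and 0.000184). Acad9, an acyl-CoA dehydrogenase that also helps assemble complex I, rose by 0.79 ± 0.082 and 0.41 ± 0.082 (adjusted p = 4.57e-06 and 0.0022), and Acat1, the acetoacetyl-CoA thiolase, by 0.78 ± 0.092 and 0.37 ± 0.092 (adjusted p = 1.47e-05 and 0.00881). Acacb makes the malonyl-CoA that inhibits Cpt1, and it was at 897, 726, 654 and 776 CPM in WT at 30 °C, 1732, 1629, 1963 and 2231 in WT at 22 °C, 624, 965, 609.5 and 674 in KO at 30 °C and 949.5, 1059, 1107 and 1109 in KO at 22 °C. It was lower in KO at 22 °C by -0.84 ± 0.14 without overlap (adjusted p = 0.00142), and its interaction of -0.75 ± 0.20 did not pass (adjusted p = 0.0566). An interaction was called for Nudt7, a peroxisomal coenzyme A hydrolase (-1.04 ± 0.22; adjusted p = 0.0228). It was lost on leaving out KO at 22 °C library 2, KO at 30 °C library 1, 3 or 4 or any 1 of the WT libraries at 30 °C (adjusted p = 0.0509 to 0.0622). Nudt7 was named after its values were seen, as were Acad12, Oxct1, Slc22a5 and Slc27a2. Nudt7 was at 183, 263, 193 and 194 CPM in WT and 62.6, 95.9, 108 and 112 in KO at 22 °C, and the groups did not overlap. The rise of Acat1 in KO was lost without KO at 22 °C library 2 or 4 (adjusted p = 0.0535 to 0.0585). The higher levels of Slc22a5 and Slc27a2 in KO were lost without KO at 22 °C library 2. That of Slc22a5 was also lost without KO at 22 °C library 1 or WT at 22 °C library 1, 2 or 4 (adjusted p = 0.0554 to 0.103).

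Of 13 peroxins, which build peroxisomes and import their enzymes, 10 rose in WT and 9 in KO, and 2 were lower in KO at 22 °C (Pex2 and Pex7, named after their values were seen). Pex16 rose by 1.45 ± 0.17 in WT and 1.04 ± 0.17 in KO, Pex14 by 0.90 ± 0.11 and 0.69 ± 0.11, Pex13 by 0.79 ± 0.084 and 0.64 ± 0.084, and Pex3 by 0.67 ± 0.087 and 0.59 ± 0.087, all with adjusted p of at most 0.000439. None of these 4 passed in KO against WT at 22 °C. An interaction was called for Pex2 (-0.53 ± 0.13; adjusted p = 0.045) and was lost on leaving out any 1 of 14 of the 16 libraries, WT at 22 °C library 4 and KO at 30 °C library 2 being the exceptions. The KO count of 9 was 5 without KO at 22 °C library 2 or 4 or KO at 30 °C library 4. All genes called higher in KO then numbered 1399, 1341 and 1374, beside 1943 in the main fit.

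Of 10 regulators, 4 rose (Ppargc1a, Esrra, Sirt3 and Rxra) and 1 fell (Ppara, named after its values were seen) with cold in WT. Ppargc1a, which encodes PGC-1α, was at 34.9, 29.5, 33.5 and 33.7 CPM in WT at 30 °C, 101, 79.6, 58.5 and 84.1 in WT at 22 °C, 27.4, 30.1, 47.3 and 31.2 in KO at 30 °C and 134, 149, 156 and 282 in KO at 22 °C. It rose by 1.30 ± 0.23 in WT and 2.41 ± 0.24 in KO and was higher in KO than in WT at 22 °C by 1.16 ± 0.23 without overlap (adjusted p = 0.000432, 1.2e-05 and 0.00348), opposite in direction to the 12 oxidation genes that were lower there. Its interaction, 1.11 ± 0.32, did not pass (adjusted p = 0.0708). Sirt3, a mitochondrial deacetylase, was lower in KO at 22 °C by -0.36 ± 0.090 (adjusted p = 0.0142). Esrra, the estrogen-related receptor alpha, rose by 0.58 ± 0.15 in WT (adjusted p = 0.006) and did not pass in KO (adjusted p = 0.172). Rxra, the partner of the PPAR receptors, rose by 0.33 ± 0.091 in WT and 0.29 ± 0.091 in KO (adjusted p = 0.00998 and 0.0292), the latter lost without KO at 22 °C library 1 or 3 or KO at 30 °C library 3 or 4 (adjusted p = 0.0822 to 0.0962). The fall of Ppara, -0.71 ± 0.24 (adjusted p = 0.0283), was lost without WT at 22 °C library 1 or WT at 30 °C library 3 or 4 (adjusted p = 0.0522 to 0.0768).

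Of 4 other PPAR target genes tested, Ucp3, an uncoupling protein homologue, rose in both genotypes, by 1.10 ± 0.27 and 1.67 ± 0.28 (adjusted p = 0.005 and 0.000569). Plin5, a lipid droplet protein, rose by 0.63 ± 0.15 in WT (adjusted p = 0.00467). Angptl4, an inhibitor of lipoprotein lipase, fell by 0.96 in WT and 0.85 in KO on the log2 scale (adjusted p = 0.0028 and 0.00993). Pdk4, the kinase that restrains pyruvate oxidation, was at 2505 ± 192 CPM in WT at 30 °C and 2658 ± 151 at 22 °C and did not pass in either genotype. None of these lists had a gene called in KO against WT at 30 °C.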

How the data were processed

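Total RNA of interscapular brown fat was sequenced in 16 libraries with standard Illumina preparation, per the labels' protocols. The authors deposited whole-number read counts, not normalized, with a row per Ensembl gene and a column per library. FastQC 0.10.1, STAR 2.4.2a and edgeR 3.14.0, with the builds GRCm38 and mm10, are named in the submitters' processing notes; how reads were assigned to genes, with which annotation and with which use of strand, is not given in the sources used here. Reads of 13 members whose exons overlap a gene on the opposite strand in GENCODE M21 may therefore be mixed with that gene's (Crat, Crot, Acadvl, Acad11, Echs1, Hadha, Eci2, Etfdh, Acox3, Acaa1a, Acaa1b, Hacl1 and Pecr).

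Groups were taken from the labels. Of the 38924 genes, 37607 had a symbol and transcript length in GENCODE M21 (the longest principal transcript was used), and the others held at most 0.131% of counts in a library. The counts were fitted in edgeR 4.0.16 (R 4.3.3) with a term per group over all 16 libraries, TMM factors (0.851 to 1.101), filterByExpr (minimum count 10, 14103 genes kept) and the quasi-likelihood test, adjusted by Benjamini-Hochberg over all genes tested and called under 0.05. The SE is the size of the log2 fold change over the square root of F. CPM per kilobase uses the transcript length. The script was tested on simulated data. Totals of 12751528 counts or more and a typical biological coefficient of variation of 22.5% set the precision. Near copies were transcripts of other genes with at least 90% identity over 200 bases (BLAST+ 2.17.0). Besides the pairs named in the text, Cpt1b (Gm44502, 100% identical over 1841 bases), Hacl1 (Gm49387, 100% over 1150), Etfb (Gm45233, 99.7% over 626), Scp2 (Scp2-ps2, 99.6% over 1371, and 2 shorter matches), Acadm (Gm5131, 93.5% over 681), Etfa (Gm15285, 93.4% over 486, and Gm15289, 95.1% over 244) and Hadhb (also Gm9108, 97.6% over 1426) have such copies or overlapping gene models, and how shared reads were assigned makes their values uncertain.

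The 36 members, the other gene lists and the tests were chosen with earlier results of these data known. All members are accounted for by role. Values in every library are given for members called in KO against WT or in the interaction, for the highest level per kilobase in each role, and in each role for up to 2 members with the smallest p and 1 with the largest p in WT at 22 °C against 30 °C. Up to 4 genes with the smallest p are named from each other list. Any further name was chosen after its values were seen. Results on 1 gene of the other lists are not reported here.

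The alternatives tried were upper-quartile factors, relative log expression factors, TMM factors computed without the 50 most abundant genes, no filter, a filter of CPM of at least 1 in 4 libraries with a mean count of at least 20, DESeq2 1.42.0, limma-voom (limma 3.58.1) with quality weights, a fit restricted to the libraries of the comparison, a block for the replicate number, the summed skeletal muscle markers as a covariate, removal of the 4 muscle-rich libraries (markers above 0.1% of counts), and removal of each compared library in turn.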

Additional observations from a re-analysis of the deposited data

Results flagged for a closer look

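In 8 of the 144 sets of 4 libraries (36 genes in 4 groups), 1 library stood apart from the other 3 by Dixon's criterion, which chance alone flags in about 1 in 20 sets. Of these 8, 5 were in KO at 22 °C library 1, each time the lowest of its group: Cpt1a at 9.19 CPM, Acad11 at 218.5, Hadh at 1605, Hsd17b4 at 308 and Decr2 at 53.0. This library also had the most skeletal muscle marker counts of all 16. The others were Hadhb in WT at 30 °C library 2 at 414 CPM, the highest of its group, Ehhadh in KO at 22 °C library 3 at 299.7 CPM, also the highest, and Decr2 in WT at 30 °C library 1 at 51.7 CPM, again the highest.

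The temperature effect differed between genotypes, by edgeR's test of the interaction, for Crot (-0.49 on the log2 scale), Hadha (-0.65), Hsd17b4 (-0.49) and Pex11a (-0.55). Their calls were lost in 1, 11, 17 and 18 of 26 alternative settings, in that order. None of the 4 was called without the muscle-rich libraries. That fit kept 12 libraries, with libraries 1 and 2 of KO at 30 °C among those removed. Negative interactions over all genes then numbered 76, beside 337 in the main fit. With the skeletal muscle markers as a covariate over all 16 libraries, Crot, Hadha and Pex11a stayed called and Hsd17b4 did not. All genes with a negative interaction numbered 269 in that fit.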

How the results depend on the processing

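No member's call reversed under any alternative. With each library left out in turn, the members higher at 22 °C ranged from 26 to 27 in WT and 11 to 19 in KO, and those lower from 0 to 1 in WT and 1 to 1 in KO. KO against WT ranged from 0 to 1 higher and 7 to 18 lower at 22 °C and stayed at 0 at 30 °C, and the interaction ranged from 1 to 13 lower and stayed at 0 higher. Over all genes, those higher at 22 °C then ranged from 2486 to 2993 in WT and 1341 to 1821 in KO. Those lower in KO at 22 °C ranged from 1084 to 1762, and negative interactions from 123 to 718. The single fall in WT, Cpt1a, was 0 without a filter or with relative log expression factors. Falls in KO numbered 2 with DESeq2, limma-voom, the fit on only the groups compared, the stricter filter and upper-quartile factors, and 0 without the muscle-rich libraries. Rises in KO numbered 25 with limma-voom, 10 with upper-quartile factors and 11 without the muscle-rich libraries. All genes higher in KO at 22 °C numbered 3079, 1179 and 955 in these fits, beside 1943 in the main fit. In KO against WT at 22 °C, 1 member was higher with DESeq2, with limma-voom and without the muscle-rich libraries, and 2 were lower in the fit on only the groups compared and 6 without the muscle-rich libraries. At 30 °C, limma-voom called 1 higher and 1 lower. Negative interactions numbered 8 with DESeq2, 2 without a filter or with upper-quartile factors and 0 without the muscle-rich libraries, and limma-voom called 1 positive. The causes were not tested, except that leaving out libraries leaves fewer samples.

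Deviations of same-numbered libraries correlated at -0.503 to 0.519, over 0.1 in 13 of 24 pairs. For number 3 every pair correlated positively, at 0.185 to 0.519, while each other number had pairs of both signs. Whether libraries numbered 3 share a batch was not tested. With the replicate number as a block, 26 members were higher and 1 lower in WT, 15 and 1 in KO, 8 were lower in KO at 22 °C, and 1 interaction was called. Over all genes, 2728 were then higher in WT, 1703 higher in KO and 1179 lower in KO at 22 °C, and 145 had a negative interaction. Upper-quartile factors moved the median log2 change of all genes in the WT temperature comparison to -0.13 and split its calls into 2196 higher and 3382 lower, beside 2897 and 2509; in KO the split was 1179 and 2540, beside 1943 and 1829. Depth limited Acaa1b most, with 94 counts in its lowest library.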
